A study of Mus musculus with 134 samples.

Results

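Cracr2a, 4930438A08Rik, Peak1, Arhgap32, Dgkd and 1700025G04Rik are 6 genes that the study put forward as markers of the Mix cluster, a group of mouse embryonic stem cells (mESCs) in which cells near to and far from a Wnt3a source were found together. They are 6 of the 25209 genes in the bulk count tables and of the 18817 genes with an entry in either single-cell table. The values that chose them were the expression levels of the same single cells, so every comparison of Mix cells with other cells below is a description without a test. The bulk libraries were not among the values that defined the markers. The position of a cell relative to the Wnt3a source and the antibody used are other contrasts of the same single cells, so they are not independent of the choice.

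SET-seq splits each cell or each batch of cells into nuclei, in which antibody-directed tagmentation maps a histone mark, and a supernatant of cytoplasmic RNA, which is reverse transcribed with oligo dT, tagmented by Tn5 transposase and sequenced. In the single-cell version (scSET-seq), dividing mESCs of the E14 line were held beside beads coated with Wnt3a protein, and the daughter cells proximal and distal to the bead were picked as pairs. Cells were processed in 16 experiments, 10 with an antibody against H3K27me3 (384 cells) and 6 with an antibody against H3K4me3 (368 cells). The bulk expression data comprised 54 libraries in 27 conditions of 2 libraries each.

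The labels and methods give the mESC line ES-E14TG2a of the 129/Ola strain for all groups, grown in serum with leukaemia inhibitory factor, and of the groups used here only the scSET-seq cells were held with Wnt3a beads. The labels give all bulk expression libraries as untreated. In the in vitro series, total RNA was tagmented at 16 or 37 °C for 5, 10, 15 or 30 min, with 25, 50 or 100 ng/µl of Tn5, or from 300 ng, 3 ng or 30 pg of RNA. SET-seq libraries were made from 10 to 10000 cells without antibody, and from 100 to 10000 cells with the H3K27me3 or H3K4me3 antibody. Aebp2 knockout cells (Aebp2 encodes an accessory subunit of the Polycomb complex PRC2) came as KO1 and KO2, lines made with different guide RNAs, each of them 1 clone. A pair of conventional ligation-based RNA-seq libraries completed the set. The study describes the libraries of a condition as biologically independent, and the labels do not name separate cultures. With 2 libraries to a condition, p-values measure the spread between these libraries.

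The known roles of the 6 genes are diverse. Cracr2a encodes a calcium sensor that binds the channel ORAI and the endoplasmic reticulum calcium sensor STIM, and that promotes store-operated calcium entry, the inflow of calcium that follows emptying of the internal store. Peak1 encodes a pseudokinase of the cytoskeleton that acts as a scaffold in adhesion and growth factor signalling with SRC, SHC1 and CRK. Arhgap32 encodes a GTPase-activating protein, one of the proteins that switch off small signalling GTPases. Dgkd encodes the delta isoform of diacylglycerol kinase, which turns the lipid messenger diacylglycerol into phosphatidic acid. 4930438A08Rik and 1700025G04Rik are genes with RIKEN clone names. No role is given for them here.

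All members but 4930438A08Rik are long genes. In mm9, the build of the count tables, Arhgap32 (chr9:31824210-32072350, plus strand) spans 248.1 kb with 26 merged exons. Peak1 (chr9:56048936-56265857, minus strand) spans 216.9 kb with 7 merged exons, and 1700025G04Rik (chr1:153731654-153937450, minus strand) spans 205.8 kb with 6. Cracr2a (chr6:127511354-127624252, plus strand) spans 112.9 kb with 19 merged exons, and Dgkd (chr1:89749862-89841064, plus strand) spans 91.2 kb with 30. 4930438A08Rik (chr11:58088330-58107792, plus strand) is the short member, with 19.5 kb and 7 merged exons. The median span of the 25145 genes placed on a single chromosome was 14.6 kb. Exons made up 4.47% to 10.6% of the members' spans, against a median of 16.2% over all genes. The single-cell tables counted reads in exons and introns together, whereas the bulk tables counted reads in exons, so the long introns of these genes entered the single-cell values alone.

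The sequences just before the annotated start differ among the members, and 3 of them are shown here as examples. They are the 250 bases upstream of the start in RefSeq annotation of GRCm38.p6, a later build than that of the files, written 5′ to 3′ on the strand of the gene, with each CG dinucleotide in capitals.
Cracr2a, chr6:127561086-127561335, plus strand: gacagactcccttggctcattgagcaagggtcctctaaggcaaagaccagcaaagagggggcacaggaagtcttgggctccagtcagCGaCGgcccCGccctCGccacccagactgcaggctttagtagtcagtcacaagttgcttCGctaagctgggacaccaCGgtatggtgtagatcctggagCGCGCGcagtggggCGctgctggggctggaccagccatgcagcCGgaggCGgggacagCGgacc
4930438A08Rik, chr11:58274578-58274827, plus strand: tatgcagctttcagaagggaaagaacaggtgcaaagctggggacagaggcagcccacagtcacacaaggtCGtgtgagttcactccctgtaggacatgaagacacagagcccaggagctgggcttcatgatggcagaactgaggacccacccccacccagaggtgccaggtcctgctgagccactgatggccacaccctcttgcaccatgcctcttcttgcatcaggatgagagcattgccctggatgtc
Peak1, chr9:56418051-56418300, minus strand: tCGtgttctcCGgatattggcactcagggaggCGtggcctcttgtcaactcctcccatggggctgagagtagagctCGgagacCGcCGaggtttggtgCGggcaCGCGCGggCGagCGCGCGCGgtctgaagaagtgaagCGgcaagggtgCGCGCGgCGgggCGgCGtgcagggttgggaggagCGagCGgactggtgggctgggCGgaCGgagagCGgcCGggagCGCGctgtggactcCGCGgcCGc
The Cracr2a window holds 13 CG dinucleotides, and 31.5% of the 32851 windows of this length before RefSeq starts hold at least as many. The 4930438A08Rik window holds 1, which 92.1% of windows reach or exceed. The Peak1 window holds 33, a number that 4.03% of windows reach, and the median over all windows was 6. The windows not shown hold 27 for 1700025G04Rik, 21 for Dgkd, and 2, 31 and 2 for the annotated starts of Arhgap32. CG reads the same on both strands, and the count is a description of these letters alone. Whether it goes with the levels of the members was not tested.

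Depth was uneven. The 545 cells that passed the study's filter (335 in H3K27me3 and 210 in H3K4me3 experiments) had 5693 to 2154524 reads each, with a median of 133760, and bulk libraries had 235040 to 21520982 counts. Of these cells, 291 were Mix, 133 Proxi (the cluster rich in proximal cells) and 121 Dista (rich in distal cells), and the other 207 cells were filtered out. Mix cells were deeper, with a median of 177043 reads against 103030 in Proxi and Dista cells together. The tables hold reads without molecular identifiers, so intervals on shares of reads or cells cover counting error only. The 96 cell barcodes were reused, 80 of them in more than 1 experiment and up to 12 experiments for a single barcode, so cells were identified by barcode and experiment together.

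Mix cells were not spread evenly over experiments. H3K27me3 experiments 8, 9 and 10 were 90.3%, 91.5% and 96.4% Mix among their clustered cells and held 153 of the 291 Mix cells (52.6%). In H3K4me3 experiment 2, 8.82% of the clustered cells were Mix. A difference between Mix and other cells over the whole data set and a difference between experiments are therefore partly the same difference. Hprt, a gene that the ES-E14TG2a line is known to lack, also differed between experiments. It was at 0 to 0.544 CPM in H3K27me3 experiments 1, 8, 9 and 10 and H3K4me3 experiment 1, and at 2.79 to 329 CPM in the others. Whether all experiments and libraries used 1 cell stock cannot be told from the labels, and the part of this difference in the results was not tested.

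Arhgap32, Cracr2a, Peak1 and 4930438A08Rik took a very large share of the single-cell reads, and Dgkd and 1700025G04Rik did not. Over the 545 cells, the mean level of Arhgap32 was 7208 CPM (reads of a gene in each 1000000 reads of the cell, not scaled for length), which placed it 9th of the 18817 genes by share of reads. Cracr2a had a mean of 6416 CPM (10th), Peak1 6309 CPM (11th) and 4930438A08Rik 5990 CPM (13th). 1700025G04Rik followed with 228 CPM (rank 557) and Dgkd with 22.4 CPM (rank 3818). Scaled to the length of the gene including introns, 4930438A08Rik led with 308 CPM per kb, ahead of Cracr2a at 56.8, Peak1 at 29.1, Arhgap32 at 29.0, 1700025G04Rik at 1.11 and Dgkd at 0.246 CPM per kb.

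The same genes stood elsewhere in bulk cytoplasmic and total RNA, where exon reads were counted. Cracr2a received 108 counts among the 362414473 counts of the 54 bulk libraries, 0.298 CPM, and was at 0 in 28 libraries. Its highest level was 3.44 CPM, from 19 counts in a SET-seq library of 10000 cells. 4930438A08Rik received 23 counts in all, 0.0635 CPM, and was at 0 in 41 libraries, with a maximum of 0.694 CPM. Both genes were thus at the edge of detection in bulk, and a 0 in a bulk library allowed a level of up to 3 counts of its total.

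Peak1, Arhgap32, Dgkd and 1700025G04Rik were read in nearly all bulk libraries, with Peak1 at 0 in 3 libraries and the others at 0 in 1 each. Pooled over the 54 libraries, Dgkd had 41.9 CPM, Peak1 34.3, Arhgap32 27.6 and 1700025G04Rik 9.73. Per kilobase of exon, in the 12 SET-seq libraries made with an antibody, Dgkd led with 8.61 ± 1.32 RPKM (reads per kilobase of exon and 1000000 counts, mean ± SD, n = 12). Peak1 followed with 2.43 ± 0.66 RPKM and Arhgap32 with 2.08 ± 0.86 RPKM (n = 12 each), and these neighbours did not differ beyond their spread. 1700025G04Rik had 0.49 ± 0.31 RPKM, while 4930438A08Rik with 0.0992 ± 0.149 RPKM and Cracr2a with 0.0718 ± 0.0892 RPKM overlapped at the bottom (n = 12 each).

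**Figure D1:**
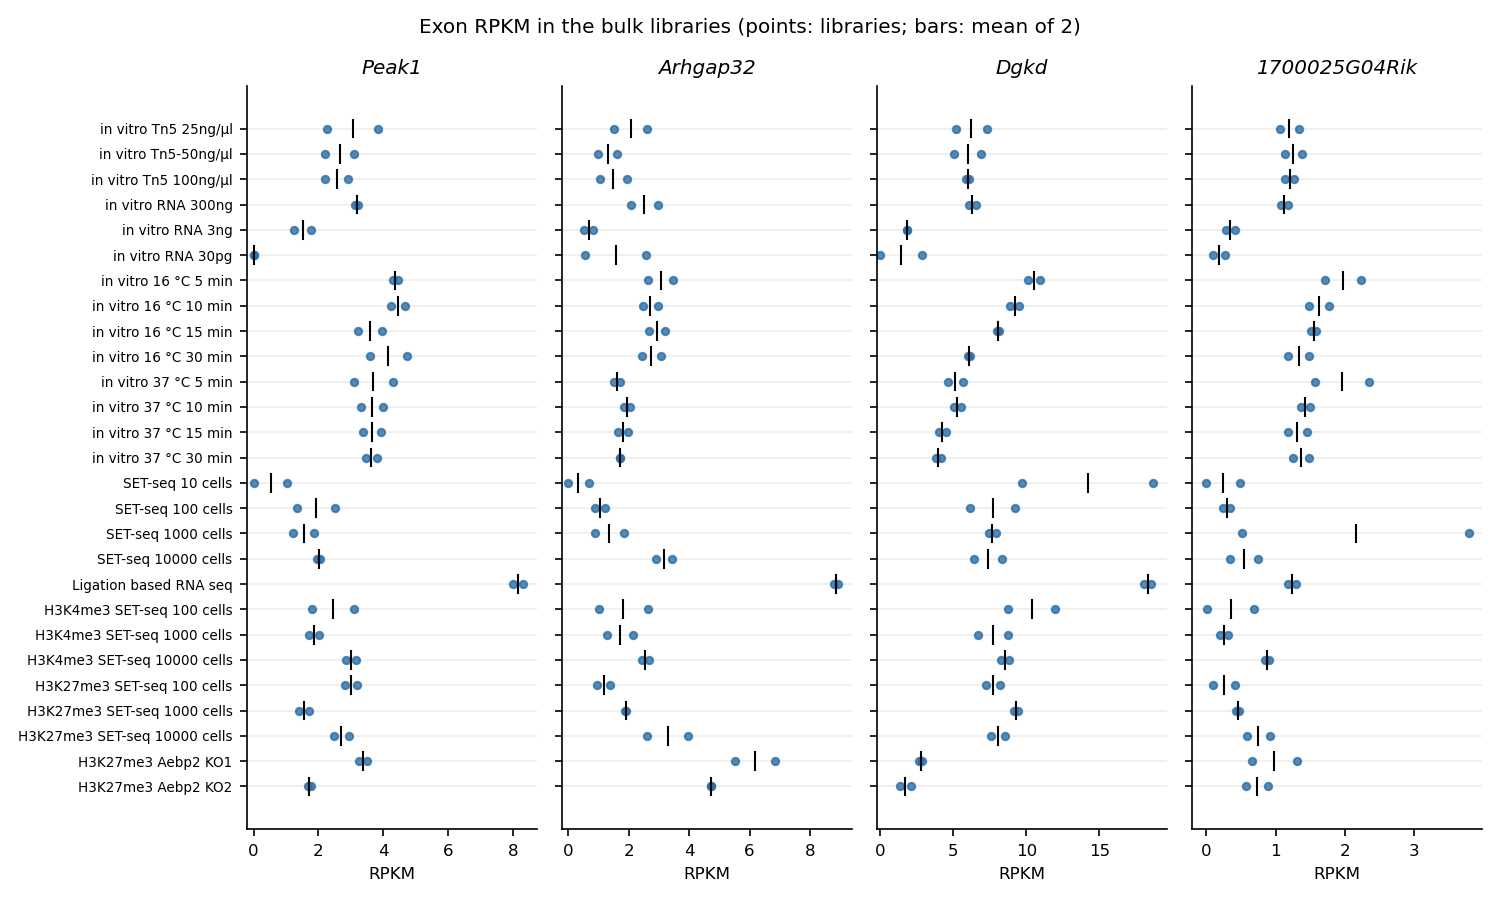
Level of Peak1, Arhgap32, Dgkd and 1700025G04Rik in the 27 bulk conditions, in RPKM, with 1 point per library and a bar at the mean of the 2 libraries. Dgkd had 18.1 and 18.5 RPKM in ligation-based RNA-seq, and 1700025G04Rik stayed below 4 RPKM in every library. Cracr2a and 4930438A08Rik are left out because their bulk medians are 0.

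Set side by side, the single-cell mean exceeded the pooled bulk level 21530-fold for Cracr2a, 94387-fold for 4930438A08Rik, 261-fold for Arhgap32, 184-fold for Peak1 and 23.4-fold for 1700025G04Rik. For Dgkd it was 0.535 of the bulk level. Among the 18817 genes ordered by this ratio on the log2(CPM + 1) scale, Cracr2a stood at percentile 99.97, 4930438A08Rik at 99.98, Arhgap32 at 99.1, Peak1 at 98.8, 1700025G04Rik at 95.4 and Dgkd at 41.5. The ratio moved with gene length. Its median was −0.59 on the log2 scale over genes of up to 20 kb, −0.58 between 20 and 100 kb, 0.55 between 100 and 250 kb, and 3.74 above 250 kb. The members of 100 kb or more, Arhgap32 at 7.98, Peak1 at 7.48, Cracr2a at 12.3 and 1700025G04Rik at 4.41, lay above the upper quartile of their length class (2.75), and the short 4930438A08Rik at 12.5 lay above that of its own (0.0081). The bulk tables and the single-cell tables were made by different counting, so the part of exons and introns in this ratio was not tested.

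**Figure D2:**
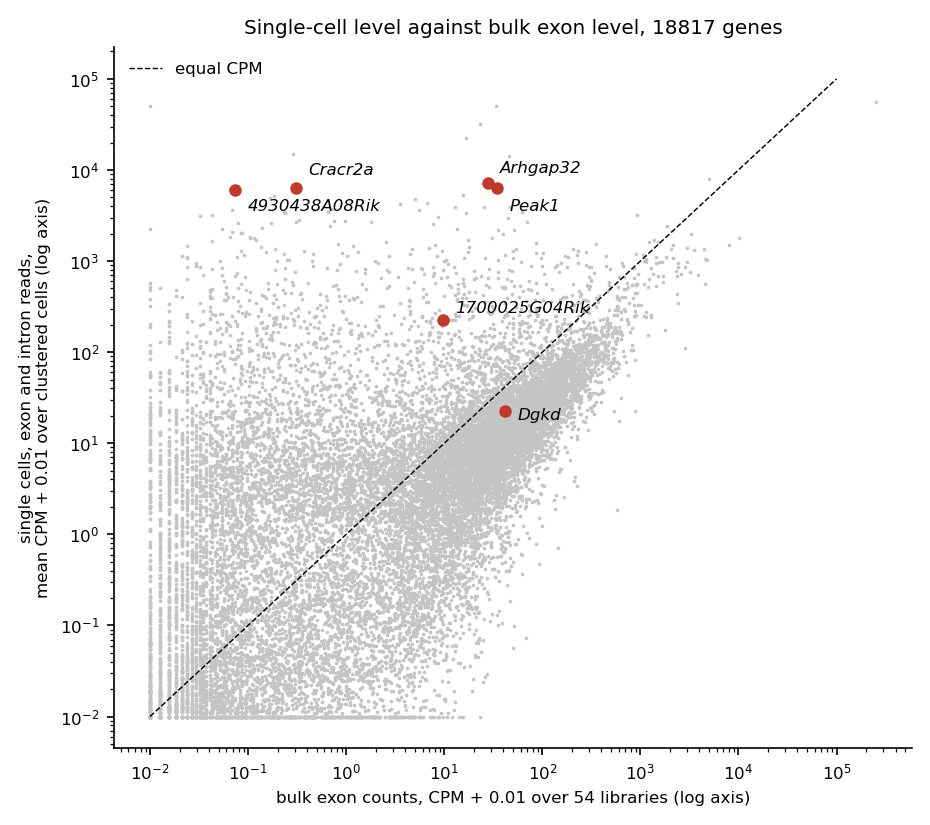
Mean level over 545 cells against pooled level over 54 bulk libraries for 18817 genes, both as CPM + 0.01 on log axes, with the 6 members in red. Cracr2a and 4930438A08Rik lie at the far upper left, Peak1 and Arhgap32 above the cloud at bulk levels of 34.3 and 27.6 CPM, and Dgkd within the cloud.

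The largest differences in single cells lay between experiments. For Cracr2a, the summed level of the clustered cells ran from 0 to 24268 CPM over the 16 experiments, with a median of 123 CPM. It exceeded 1000 CPM in 7 experiments, namely H3K27me3 experiments 2 (2228 CPM), 6 (9903), 8 (11029), 9 (15335) and 10 (10214) and H3K4me3 experiments 4 (24268) and 6 (10020). It was under 10 CPM in 6 others. In 8 experiments every clustered cell, whatever its cluster, had at least 1 Cracr2a read, and in H3K4me3 experiment 1 none of 4 had.

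4930438A08Rik was high in much the same experiments, with 0 to 20407 CPM, a median of 296 CPM, and more than 1000 CPM in H3K27me3 experiments 6 to 10 and H3K4me3 experiments 4 and 6. Its highest level was in H3K27me3 experiment 10 and it was at 0 in H3K4me3 experiment 1. The gene was read in every clustered cell of 9 experiments. H3K27me3 experiment 7 parted it from Cracr2a, with 2644 CPM of 4930438A08Rik and 1.72 CPM of Cracr2a.

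Arhgap32 ran from 7.26 to 20429 CPM, with a median of 1620 CPM and its highest level in H3K27me3 experiment 8. 1700025G04Rik ran from 1.63 to 652 CPM, with a median of 74.1 CPM, and also peaked in H3K27me3 experiment 8. Peak1 was the steadiest of the abundant members, at 537 to 19755 CPM with a median of 4801 CPM. It had its lowest level in H3K27me3 experiment 9, where Cracr2a had 15335 and 4930438A08Rik 15756 CPM, and it was read in every clustered cell of 13 experiments. Dgkd stayed between 0 and 61.8 CPM, with a median of 8.94 CPM, and was at 0 in 4 experiments.

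The experiment accounted for most of the spread between cells. On the log2(CPM + 1) scale over the 545 cells, it accounted for 90.0% of the variance of Cracr2a, 89.2% of that of Arhgap32, 87.9% for 4930438A08Rik, 76.5% for 1700025G04Rik and 76.0% for Peak1. For Dgkd, a gene read in few cells, the share was 6.32%. The Mix label accounted for 23.9% of the variance of Cracr2a when experiments were ignored and for 2.40% of the variance that remained within experiments. The corresponding within-experiment shares were 3.90% for 4930438A08Rik, 5.24% for Peak1, 9.95% for Arhgap32, 6.36% for Dgkd and 4.73% for 1700025G04Rik.

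**Figure D3:**
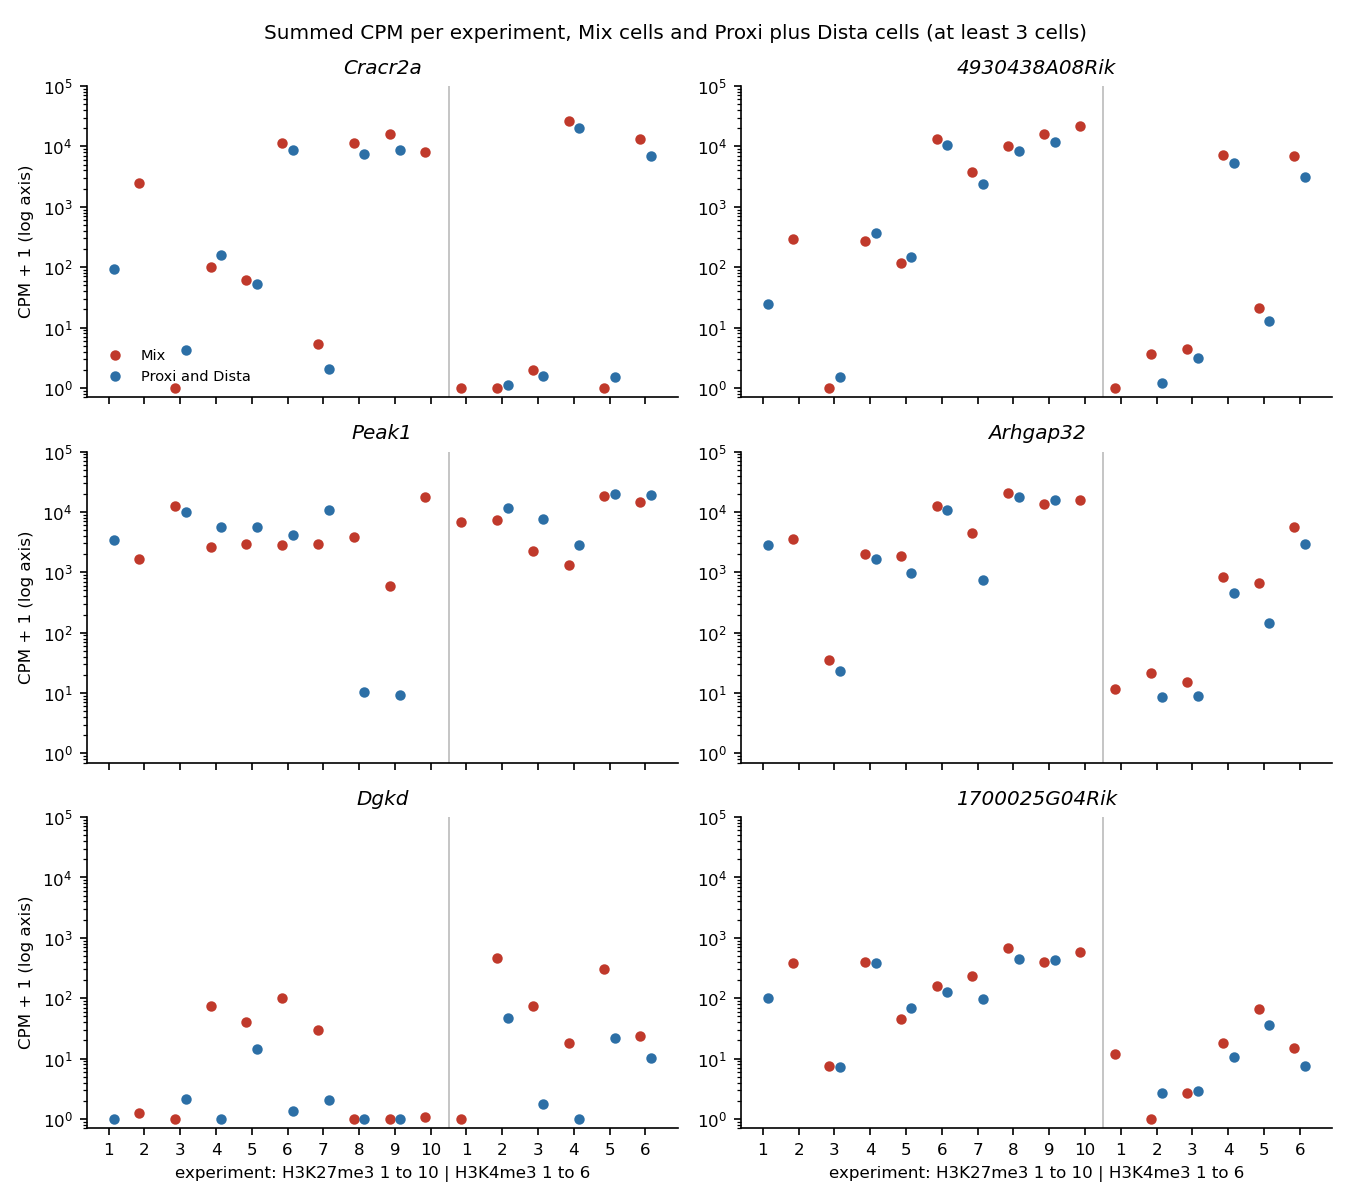
Summed level of each member in CPM + 1 on a log axis, per experiment, for Mix cells (red) and for Proxi and Dista cells together (blue), shown where a group has at least 3 cells. For Cracr2a the red and the blue points rise and fall together across experiments, from under 10 CPM to over 10000 CPM, and the gap between colours is small beside that range.

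Over all cells, 5 members were higher in Mix cells than in Proxi and Dista cells, and Peak1 was lower. These values come from the cells that chose the genes, and no test is given. Cracr2a had 9746 CPM in the summed Mix cells and 3148 CPM in the others, a ratio of 3.10. 4930438A08Rik had 10556 against 2913 CPM (3.62), Arhgap32 12569 against 3968 CPM (3.17) and 1700025G04Rik 394 against 96.0 CPM (4.11). For the members just named, the Proxi and Dista clusters lay nearer to each other than to Mix. Cracr2a had 4041 and 1926 CPM in them, and 4930438A08Rik 3146 and 2595 CPM. Arhgap32 had 4414 and 3358 CPM and 1700025G04Rik 106 and 82.0 CPM. Dgkd went the other way, with 22.5 CPM in Mix, 14.6 CPM in Proxi and 2.03 CPM in Dista cells. For comparison, over the 6775 genes with a read in at least 10% of cells the median log2 ratio was −0.85 and 38.2% of genes were higher in Mix cells.

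In these levels, which are not corrected for batch as the study's were, Peak1 went against its label as a Mix marker. Its summed level was 4800 CPM in Mix cells and 7327 CPM in the others, a ratio of 0.655. The median Mix cell had 260 CPM of Peak1, and the median of the other cells was 7309 CPM. Within experiments Peak1 was lower in Mix cells of 9 of 12 and higher in 3. Among the latter were H3K27me3 experiments 8 (3770 against 9.33 CPM, 6 other cells) and 9 (583 against 8.42 CPM, 4 other cells). A single Mix cell of H3K27me3 experiment 10 held 182146 Peak1 reads, 35.2% of its reads, and without it the ratio was 0.368. In the H3K27me3 experiments alone, with that cell included, the ratio was 0.979, and in the H3K4me3 experiments alone 0.398.

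Dgkd was a marker on very few cells. It had 22.5 CPM in Mix cells and 9.30 CPM in the others, a ratio of 2.42, or 1.56 without the cell that held most of its reads. A read was found in 9.62% of Mix cells (95% Wilson interval 6.74% to 13.6%) and in 11.8% of the others (8.40% to 16.4%). It had 2518 reads in all, which lay in 58 cells, and the cell with most held 702.

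The other members differed also in the typical cell. The median Mix cell had 1869 CPM of Cracr2a and the median Proxi or Dista cell had 0. For 4930438A08Rik the medians were 2480 and 68.3 CPM, for Arhgap32 9787 and 340 CPM, and for 1700025G04Rik 303 and 20.7 CPM. A Cracr2a read was found in 83.2% of Mix cells (95% Wilson interval 78.4% to 87.0%) and 39.8% of the others (33.9% to 45.9%). After thinning every cell to 20000 reads, which 281 Mix and 219 other cells reached, the shares were 82.6% and 34.7%.

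After the same thinning, 4930438A08Rik was found in 85.8% of Mix and 53.0% of other cells (90.0% and 70.1% before), Arhgap32 in 90.0% and 71.2% (97.6% and 89.8% before), and 1700025G04Rik in 74.0% and 43.4% (83.5% and 67.3% before). Peak1 was found in 63.3% of thinned Mix cells and 95.4% of the others (85.2% and 98.8% before). Among the filtered cells, Cracr2a had a read in 45.4%, Peak1 in 98.1% and Arhgap32 in 71.0%. No cell type in these tables is known to lack the genes, so the share that free RNA gives was not measured.

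**Figure D4:**
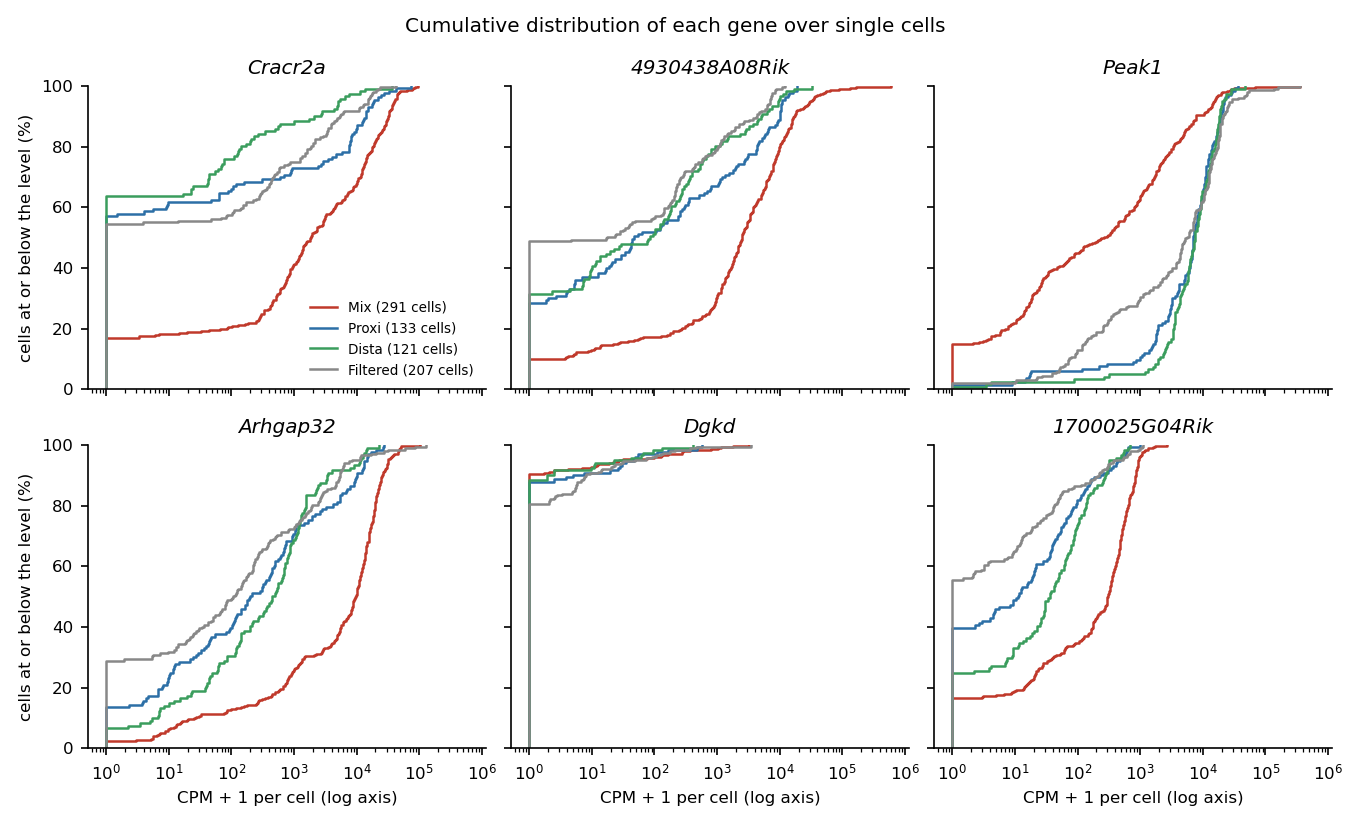
Cumulative share of cells at or below each level (CPM + 1, log axis) for each member, in Mix, Proxi, Dista and filtered cells. The Mix curve lies to the right for Cracr2a, 4930438A08Rik, Arhgap32 and 1700025G04Rik, to the left for Peak1 (median 260 CPM against 7309 CPM), and the Dgkd curves start high, since 9.62% of Mix cells and 19.3% of filtered cells have a read.

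Within experiments most of these differences were smaller. In the 12 experiments with at least 3 Mix cells and 3 others, Arhgap32 was higher in the summed Mix cells of 11, 4930438A08Rik and Dgkd of 9, Cracr2a and 1700025G04Rik of 8, and Peak1 of 3. The median log2 ratio over these experiments, with 1 CPM added, was 0.84 for Arhgap32 (SD 0.82, n = 12), 0.44 for 4930438A08Rik (SD 0.63) and 0.35 for Cracr2a (SD 0.92). It was 0.22 for 1700025G04Rik (SD 0.75), −0.61 for Peak1 (SD 3.24) and 3.55 for Dgkd (SD 2.52). In H3K4me3 experiment 4, for example, Cracr2a had 26093 CPM in Mix cells and 20399 CPM in the others, and in H3K27me3 experiment 5 it had 61.0 and 50.8 CPM.

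The size of the Mix difference also varied with the antibody, in no common direction. In H3K4me3 and H3K27me3 experiments the ratios of Mix to other cells were 4.83 and 2.45 for Cracr2a, 4.99 and 2.75 for 4930438A08Rik, and 3.72 and 2.37 for Arhgap32. For Dgkd they were 2.80 and 25.8, and for Peak1 0.398 and 0.979. The H3K27me3 values of Dgkd and Peak1 include the Mix cell that held most reads of each gene (702 and 182146 reads). In the H3K4me3 experiments alone, 1700025G04Rik had 8.98 CPM in Mix cells and 8.34 CPM in the others, a ratio of 1.08, against 3.14 in the H3K27me3 experiments. Without H3K27me3 experiments 8 to 10 the ratios were 2.62 for Cracr2a, 2.08 for 4930438A08Rik, 1.88 for Arhgap32, 2.33 for 1700025G04Rik, 0.459 for Peak1 and 5.43 for Dgkd.

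The summed level of embryonic stem cell markers moved with the clusters too. The 8 of 9 listed genes with an entry, among them Nanog, Zfp42 and Dppa5a, summed to 629 CPM in Mix cells and 2591 CPM in the others, with ranges over experiments of 0.792 to 14805 CPM and 0.702 to 4089 CPM. Of these genes Utf1 was higher in Mix cells (308 against 218 CPM) and Pou5f1 was at 0.525 against 39.2 CPM. Markers of primitive endoderm (6 genes) summed to 3.00 and 9.14 CPM, of trophectoderm (4 genes) to 2.14 and 6.98 CPM, and of fibroblasts (5 genes) to 0.956 and 12.6 CPM. Gata6 (0.291 against 0.207 CPM), Dab2 (1.33 against 0.747) and Krt8 (1.99 against 0.795) were higher in Mix cells, and the rest of these lists lower. Sox7 and Elf5 were near the floor in both groups, at 0 and 0.0159 CPM. Neural genes (4) summed to 60.5 and 125 CPM, with Dcx alone higher in Mix cells (7.70 against 2.91 CPM). RNAs known to stay in the nucleus (8) summed to 51.7 and 49.1 CPM. Their part in the members' levels was not tested.

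Members varied together across cells, mostly through the experiment. Over all 545 cells the Pearson correlation on the log2(CPM + 1) scale was 0.79 between Cracr2a and 4930438A08Rik, and 0.22 after centring each experiment. Arhgap32 and 1700025G04Rik had 0.79 and 0.38. Peak1 was negatively correlated with Cracr2a, 4930438A08Rik, Arhgap32 and 1700025G04Rik over all cells, at −0.49 to −0.60, and within experiments these were −0.07 to −0.10. Cells of an experiment share a library, and these values carry no test.

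The genes whose pattern was most like that of the 6 within experiments were Jag1, Otud7a, Cfap54, Gli3, Mgat4c, Col24a1, Sos2, Cfap61, Olfr224 and the entry named Mir3084-1. That entry joins separate loci on a chromosome into a span of 35834 kb and had 0 CPM in bulk, so its single-cell reads need not come from the microRNA. Their mean correlation with the 6 members over the 545 cells was 0.26 for Jag1, the highest, and 0.24 for Mir3084-1. Jag1 correlated at 0.71 with Arhgap32 and at −0.06 with Peak1. Like Cracr2a, several were little read in bulk, with 0.0938 CPM for Col24a1, 0.221 CPM for Cfap54 and 0.737 CPM for Otud7a, against single-cell means of 1845, 3499 and 2739 CPM.

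The position of a daughter cell relative to the Wnt3a bead, another contrast of the cells that chose the genes, made no difference that passed the test. In the 14 experiments with at least 3 proximal and 3 distal cells, Cracr2a was higher in the summed proximal cells of 5, 4930438A08Rik of 4, Peak1 of 10, Arhgap32 of 6 and 1700025G04Rik of 4. Dgkd was higher in proximal cells of 2 experiments and in distal cells of 9. In edgeR's quasi-likelihood test on the summed counts with the experiment as a block, 0 of 13062 genes passed an adjusted p (Benjamini-Hochberg) of 0.05, a background of 0%, with 1196 genes at an unadjusted p below 0.05. limma on the mean log2(CPM + 1) per cell also called 0, with 1202 at an unadjusted p below 0.05.

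The proximal against distal estimates for the members were a log2 fold change of 0.15 for Cracr2a (SE 0.48, adjusted p = 0.983), −0.38 for 4930438A08Rik (SE 0.36, adjusted p = 0.854) and −0.24 for Peak1 (SE 0.54, adjusted p = 0.966) by edgeR. For Arhgap32 the estimate was −0.25 (SE 0.37, adjusted p = 0.932), for 1700025G04Rik −0.13 (SE 0.40, adjusted p = 0.982) and for Dgkd −2.13 (SE 1.15, adjusted p = 0.620). A p that misses the threshold does not show equal levels. H3K27me3 experiment 10 had summed levels that differed by position in opposite directions. Cracr2a was at 16799 CPM in proximal and 1563 CPM in distal cells, 4930438A08Rik at 3356 and 42810 CPM, and Peak1 at 17.3 and 38824 CPM. This experiment also held the clustered cell with most Peak1 reads (182146) and that with most 4930438A08Rik reads (117214). The high distal sums of these genes thus rest largely on single cells and do not describe the typical distal cell.

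H3K27me3 and H3K4me3 experiments were compared next. The 2 antibodies act on the nuclei and the RNA is taken from the supernatant, so this comparison asks whether the RNA profile was the same whichever mark was mapped. Cracr2a ran from 1.72 to 15335 CPM in the 10 H3K27me3 experiments (median 1187) and from 0 to 24268 CPM in the 6 H3K4me3 experiments (median 0.634). 4930438A08Rik had medians of 1494 and 7.69 CPM, Arhgap32 of 3095 and 100.2 CPM, 1700025G04Rik of 239 and 9.68 CPM. Peak1 had 4152 and 8180 CPM and Dgkd 0.578 and 27.4 CPM. The ranges of the 2 groups overlapped for each member.

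This comparison is not independent of the choice of genes, since H3K27me3 experiments 8 to 10 hold 153 of the 291 Mix cells, and the members' values are given as a description. edgeR's quasi-likelihood test called 940 of 8481 genes (11.1%) at an adjusted p below 0.05, 681 higher (8.03%) and 259 lower (3.05%) with H3K27me3. With DESeq2's size factors it called 606, and with total counts as the scale 76 (26 higher, 50 lower). The median of all genes was 0.72 on the log2 scale by edgeR's TMM normalization, 0.07 by size factors and −0.03 by total counts. Arhgap32 had a log2 difference of 6.41 (SE 2.56, 4.54 to 7.27 when 1 experiment was left out) and 1700025G04Rik of 5.4 (SE 2.13, 3.88 to 7.44). 4930438A08Rik had 4.09 (SE 2.24, 2.62 to 6.56) and Cracr2a 2.01 (SE 1.97, 0.63 to 5.24, and −0.22 with total counts). Peak1 had 0.17 (SE 1.83), which changed sign between −1.29 and 1.79 with the experiment left out and was −0.75 with total counts, and Dgkd had −2.0 (SE 1.43, −3.76 to −1.14). Without H3K27me3 experiments 8 to 10 the log2 differences were −1.96 for Cracr2a, −0.16 for 4930438A08Rik and 2.24 for Arhgap32.

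In bulk expression, the 6 H3K27me3 and 6 H3K4me3 libraries were compared with cell number as a term. edgeR called 0 of 11582 genes (background 0%), with 365 at an unadjusted p below 0.05, and DESeq2 called 0 with 417. Arhgap32 ran from 10.7 to 44.1 CPM with the H3K27me3 antibody and from 11.3 to 29.7 CPM with the H3K4me3 antibody, a log2 difference of −0.07 (SE 0.23, adjusted p = 0.996). The log2 differences of Peak1 (−0.04, SE 0.16), Dgkd (−0.11, SE 0.12) and 1700025G04Rik (−0.0028, SE 0.61) were likewise within their standard errors.

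In the bulk comparisons that follow, Cracr2a and 4930438A08Rik had too few counts to enter the fit, so 4 of the 6 members were tested. In bulk, fewer cells that express a gene and less RNA per cell cannot be told apart. The level of Rn45s, the ribosomal RNA precursor, differed widely between the bulk groups, from 1.54% of counts in ligation libraries to 84.6% with 3 ng of RNA, and it moves every plain CPM. Bulk values per library below are therefore CPM of counts without Rn45s, except those of Hprt, which are plain CPM.

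**Figure D5:**
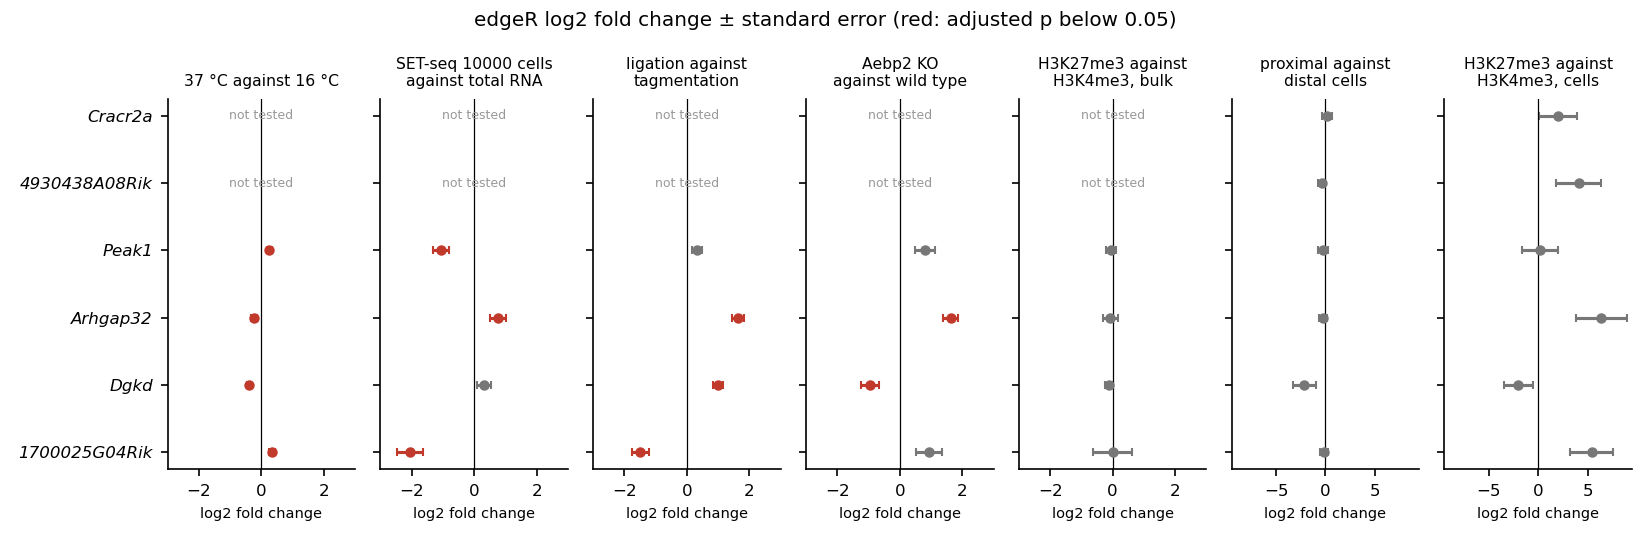
log2 fold changes of the 6 members in 7 comparisons by edgeR, with bars of ±1 SE, red where the adjusted p is below 0.05. Arhgap32 was called higher in Aebp2 knockout cells (1.63) and in ligation-based RNA-seq (1.62), Dgkd moved down with temperature (−0.40), and none of the single-cell comparisons is red.

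Temperature of tagmentation was compared over 8 libraries at 16 °C and 8 at 37 °C, with time as a term, to ask whether the reaction conditions alter the levels. Dgkd had 44.8, 58.5 and 71.4 CPM (lowest, median, highest) at 16 °C and 36.4, 40.7 and 48.3 CPM at 37 °C. It fell by 0.40 on the log2 scale (SE 0.070, adjusted p = 1.24e-05, edgeR), and the 2 groups overlapped. Arhgap32 had 32.3, 37.9 and 44.4 CPM at 16 °C and 26.5, 31.2 and 34.4 CPM at 37 °C, and fell by 0.23 (SE 0.092, adjusted p = 0.0333 by edgeR, between 0.0138 and 0.0908 when 1 library was left out, so the call rests on single libraries).

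Peak1 and 1700025G04Rik were higher at 37 °C by edgeR's normalization but not with total counts as the scale. Peak1 had 42.3, 54.2 and 66.5 CPM at 16 °C and 53.0, 65.3 and 70.3 CPM at 37 °C, a log2 difference of 0.26 (SE 0.077, adjusted p = 0.0044) by edgeR that became −0.19 (adjusted p = 0.0425) with total counts as the scale. 1700025G04Rik had 15.4, 18.8 and 25.0 CPM at 16 °C and 18.0, 23.2 and 34.0 CPM at 37 °C, a log2 difference of 0.34 (SE 0.105, adjusted p = 0.0056) by edgeR that became −0.12 (adjusted p = 0.334) with total counts. Rn45s took 11.8% to 25.1% of counts at 16 °C and 33.0% to 40.7% at 37 °C. All 4 tested members thus passed, 2 in each direction, where 63.1% of the 11843 tested genes did (3761 or 31.8% higher, 3708 or 31.3% lower, and 1413 and 7121 with total counts, the median of all genes being −0.01 and −0.46). With the 5 min libraries alone Dgkd was the member that passed (−0.52, adjusted p = 0.0377, edgeR).

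The lists of genes that work with the members mostly split in the same comparison. All 8 tested genes of store-operated calcium entry changed, 3 higher and 5 lower at 37 °C, with Stim2 higher by 0.98 and Orai3 lower by 0.49 on the log2 scale. Of the diacylglycerol kinases all 6 tested changed, 1 higher and 5 lower. Of the PEAK1 scaffold and adhesion list 8 of 12 changed, 4 in each direction. These counts stand beside the 63.1% of all genes.

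Aebp2 knockout was compared with wild-type H3K27me3 SET-seq libraries of 10000 cells, 4 libraries against 2. The targeted gene, on the scale without Rn45s used for the members, had 65.5 and 76.0 CPM in wild type, 15.7 and 15.0 CPM in KO1, and 49.7 and 30.2 CPM in KO2, so it was lower in each knockout library but not absent. Arhgap32 had 56.6 and 37.8 CPM in wild type against 141 and 159 CPM in KO1 and 102 and 109 CPM in KO2. No knockout library overlapped the wild type, but the share of all genes without overlap is not given here. Arhgap32 rose by 1.63 on the log2 scale (SE 0.24, adjusted p = 0.000124, edgeR), and by 0.76 (adjusted p = 0.0149) with total counts as the scale.

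Dgkd had 62.2 and 56.4 CPM in wild type, 35.3 and 34.2 CPM in KO1 and 14.9 and 24.9 CPM in KO2, again without overlap. It fell by 0.96 (SE 0.28, adjusted p = 0.0127, edgeR), a call that was lost when either wild-type library was left out (adjusted p = 0.106 and 0.0878). Peak1 separated the clones. It had 41.2 and 35.4 CPM in wild type, 88.3 and 74.9 CPM in KO1 and 37.8 and 38.3 CPM in KO2, with a log2 difference of 0.80 over both clones (adjusted p = 0.0524), 1.26 in KO1 (adjusted p = 3.34e-06) and 0.23 in KO2 (adjusted p = 0.443) by edgeR, and −0.07 with total counts. Peak1 passed when either KO2 library was left out (adjusted p = 0.0242 and 0.0115) and with DESeq2's size factors (adjusted p = 0.0481). The difference between the clones was not tested. 1700025G04Rik had 7.27 and 11.7 CPM in wild type and 11.6 to 26.7 CPM in the 4 knockout libraries, a log2 difference of 0.94 (adjusted p = 0.0791, edgeR, between 0.0385 and 0.374 when 1 library was left out).

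Of the 4 tested members 2 passed, 1 in each direction, where 43.2% of the 9945 tested genes did (2124 or 21.4% higher, 2177 or 21.9% lower, and 476 and 5556 with total counts, with a median over all genes of −0.02 and −0.88). By the rule of an unadjusted p below 0.05 and more than a doubling or halving, 29.2% of tested genes were called, and Arhgap32 was the member among them. Another difference ran alongside the genotype. Hprt was at 53.2 to 383 CPM in the 20 wild-type SET-seq libraries and at 0 to 1.02 CPM in the 4 knockout libraries, and Rn45s took 21.9% to 23.4% of counts in the wild type and 48.8% to 56.7% in the knockout. The knockout and this difference in Hprt cannot be told apart. Against the in vitro total RNA libraries of 37 °C and 5 min, in which Hprt was at 0, Arhgap32 was higher in knockout cells by 2.24 (adjusted p = 1.36e-05), whereas Dgkd at −0.68 (adjusted p = 0.116), Peak1 at −0.03 (adjusted p = 0.955) and 1700025G04Rik at −0.71 (adjusted p = 0.151) did not pass edgeR's test. In this setting 3513 of 9455 tested genes were called. It sets cytoplasmic RNA of knockout cells against total RNA, so the genotype and the RNA fraction cannot be told apart in it.

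In the knockout comparison, in which 43.2% of all tested genes were called, store-operated calcium entry genes changed in 2 of 7 cases, both higher (Itpr1 by 0.89 and Itpr3 by 1.43, receptors that release calcium from the store). Diacylglycerol kinases changed in 2 of 5, with Dgkh higher by 2.20 and Dgkd lower. The PEAK1 scaffold and adhesion list had 3 of 12, all higher, namely Bcar1, Crkl and Ptk2.

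Cytoplasmic RNA of 10000 cells was set against in vitro tagmented total RNA (37 °C, 5 min), 2 libraries each. 1700025G04Rik had 4.22 and 8.46 CPM in cytoplasmic RNA and 34.0 and 23.9 CPM in total RNA, and was lower by −2.07 on the log2 scale (SE 0.42, adjusted p = 0.0025, edgeR). Peak1 had 28.0 and 25.2 CPM against 70.3 and 53.0 CPM, a difference of −1.06 (SE 0.25, adjusted p = 0.0060 by edgeR, or −0.83 and 0.0631 without the first total RNA library). Neither gene's libraries overlapped between the groups, which is a description, since the share of all genes without overlap is not given here.

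Arhgap32 had 39.9 and 44.4 CPM in cytoplasmic and 28.6 and 26.5 CPM in total RNA, higher by 0.76 (SE 0.25, adjusted p = 0.0298 by edgeR, 0.182 by DESeq2, and 0.0305 to 0.131 when 1 library was left out). Dgkd had 45.2 and 55.4 CPM against 48.3 and 41.1 CPM, a log2 difference of 0.31 (SE 0.24, adjusted p = 0.294, edgeR). Thus 3 of 4 tested members passed, 1 higher and 2 lower, where 50.5% of 10736 genes did (2920 or 27.2% higher, 2501 or 23.3% lower, and 3235 and 1752 with total counts, with a median of 0.08 and 0.28). Hprt was at 0 in both total RNA libraries and at 53.2 and 106.9 CPM in the SET-seq libraries, so the RNA fraction and this difference cannot be told apart. Of the listed genes, 5 of 7 in store-operated calcium entry (1 higher), 2 of 6 diacylglycerol kinases (1 higher) and 5 of 12 in the PEAK1 list (1 higher) changed.

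Ligation-based RNA-seq was set against the same in vitro libraries, which both comparisons thus share. Arhgap32 had 100.8 and 99.6 CPM by ligation and 28.6 and 26.5 CPM by tagmentation, and was higher by 1.62 (SE 0.19, adjusted p = 1.03e-06, edgeR). Dgkd had 104 and 108 CPM against 48.3 and 41.1 CPM, higher by 1.00 (SE 0.17, adjusted p = 6.0e-05, edgeR). 1700025G04Rik was the member that was lower, with 11.7 and 12.9 CPM against 34.0 and 23.9 CPM, a difference of −1.49 (SE 0.27, adjusted p = 0.000117, edgeR).

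Peak1 had 89.2 and 93.1 CPM by ligation and 70.3 and 53.0 CPM by tagmentation, a log2 difference of 0.31 (SE 0.16, adjusted p = 0.112) by edgeR that became 1.13 (adjusted p = 4.29e-06) with total counts and 0.61 (adjusted p = 0.0136) without the first tagmentation library. So 3 of 4 tested members passed, 2 higher and 1 lower, where 58.0% of 12283 genes did (3689 or 30.0% higher, 3431 or 27.9% lower, and 7259 and 1485 with total counts, with a median of 0.12 and 0.94). Hprt was at 178 to 181 CPM in the ligation libraries, so the library method and the Hprt difference cannot be told apart either. Of the listed genes, 4 of 8 in store-operated calcium entry (1 higher), 2 of 8 diacylglycerol kinases (both higher) and 8 of 12 in the PEAK1 list (5 higher) changed.

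In single cells the lists differed in whether partners shared the height of their member. Of the 10 other store-operated calcium entry genes with an entry, Itpr2 had the highest Mix level with 25.8 CPM (10.9 CPM in other cells), beside 9746 CPM of Cracr2a. Among diacylglycerol kinases, Dgkb had 607 and 463 CPM and Dgkg 217 and 22.9 CPM in Mix and other cells, both above Dgkd in Mix cells, and in the median bulk library Dgkb was at 0. In the PEAK1 list, Ywhae had 2113 and 894 CPM in Mix and other cells, beside 4800 and 7327 CPM of Peak1. Ywhae is itself a Mix marker that the study chose on these cells, so its higher Mix level is no independent observation. The next highest Mix level in that list was 82.8 CPM, of Src. None of the genes of these 3 lists passed the test of position, in which 0 of all 13062 tested genes did. In the comparison of antibodies, in which edgeR called 11.1% of 8481 genes, Dgkg (higher with H3K27me3) was the 1 called. That comparison partly overlaps with that of Mix and other cells, so this call is a description.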

How the data were processed

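Single-cell and bulk expression tables hold read counts that the authors deposited without normalization. In the study's methods, reads were trimmed with Trim Galore and aligned with STAR to mm9, bulk counts were assigned to exons with featureCounts (2.0.0 in the submitters' processing notes), and single-cell counts were made with zUMIs over exons and introns without molecular identifiers. Per the file headers the bulk counts were made without a strand setting, and the strand setting of the single-cell counts is not given in the sources used here. Clusters and positions were taken from the study's cell table, which kept cells with more than 1000 and fewer than 5000 genes and was built after batch correction across experiments.

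Single-cell levels are reads of a gene in each 1000000 reads of the summed cells unless a mean or median over cells is named. A pseudocount of 1 was used on log scales, and at least 3 cells were required per group and experiment. Position and antibody were tested on counts summed per experiment. The tests used edgeR 4.0.16 (quasi-likelihood, TMM normalization) with Benjamini-Hochberg adjustment over all tested genes and a threshold of 0.05, beside DESeq2 1.42.0 and limma 3.58.1, in R 4.3.3 with Python 3.11.15. Every test was checked on simulated counts. The members and gene lists were chosen with earlier results of these data known. Named further genes are the 10 outside the members with the highest mean correlation with the 6 over the clustered cells, on the log2(CPM + 1) scale centred within experiments, among genes with a read in at least 10% of cells. Genes of the fixed lists were named as examples after their values were seen. Alternatives tried were other scalings, tools and filters, replicate blocks, left-out libraries and, added after seeing the data, other wild-type libraries, Rn45s removal and subsets of experiments. No sample column was left unused (0). Epigenome tracks were not used here. The results of 1 further gene list are not reported here.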

Additional observations from a re-analysis of the deposited data

Results flagged for a closer look

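Levels per experiment were screened for an experiment far from the others of its antibody, in 12 groups (6 genes, 2 antibodies). The cutoff was that of Dixon's test, which marks about 1 in 20 groups of normally distributed values by chance. It was applied to CPM without a log scale, and these levels are strongly skewed, so that rate does not hold here and the flags are a description. The screen found 3. Arhgap32 had 4247 CPM in H3K4me3 experiment 6, where the other 5 experiments had at most 717 CPM. Dgkd had 49.0 CPM in H3K27me3 experiment 6, where the next highest of the 10 experiments had 21.0 CPM. This experiment holds the cell with most Dgkd reads, 702 of the 2518 in all clustered cells. 1700025G04Rik had 37.6 CPM in H3K4me3 experiment 5, where the next highest of the 6 had 14.8 CPM. The difference between the antibodies in the effect of position was tested for the 6 members, and 0 had an unadjusted p below 0.05 in edgeR's quasi-likelihood test.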

How the results depend on the processing

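Over the alternatives, 507 values of single members stayed the same, 24 were weaker, 11 stronger, 7 moved and 3 reversed. A tested value stayed the same if it kept its side of the threshold and, where called, its direction. An untested Mix value did so if it kept its sign and changed by less than the SD over experiments. The counts were of called genes or, for Mix against other cells, of members higher in Mix cells. Of them, 94 stayed within 1.5 times the main count and 22 did not. The reversed values were Peak1 (−0.19) and 1700025G04Rik (−0.12) between temperatures with total counts as the scale, and the difference in share of cells with Dgkd when at least 2 reads were required (1.02 points higher in Mix cells, −2.19 with 1 read). Called genes numbered 3396 between temperatures with the 5 min libraries alone and 2969 in cytoplasmic against total RNA without the filter on low counts. Between positions they numbered 24 without the filter, 8 with all cells and 55 without the experiment as a block. Between single-cell antibodies they numbered 606 with DESeq2's size factors, 9 with limma, 3493 without the filter, 1573 with all cells, 341 with Mix cells alone, 215 without H3K27me3 experiments 8 to 10 and 76 with total counts. Leaving out 1 library gave 7042 to 7535 between temperatures, 2035 to 4737 for the knockout (2342 and 2035 without either wild-type library), 0 to 0 for the bulk antibodies, 3891 to 5718 for cytoplasmic RNA, 5083 to 6742 for ligation, and 324 to 1208 for the single-cell antibodies, where leaving out H3K27me3 experiment 4 (398) or 6 (324) or H3K4me3 experiment 1 (423), 2 (499), 3 (415), 5 (546) or 6 (611) mattered most. The causes were not tested.

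The labels do not say that equal replicate numbers mark pairs, so samples share only a number. With a replicate block the counts were 7483 between temperatures, 3790 for the knockout, 0 for the bulk antibodies, 5967 for cytoplasmic RNA, 6521 for ligation and 0 for the single-cell antibodies in experiments 1 to 6. Correlations of differences, not of whole expression profiles, were used to look for such pairs. In bulk, the difference between the replicates of a group, per gene on a log scale, was correlated between groups. In single cells, the deviation of each gene from its antibody's mean was correlated between same-numbered experiments. These correlations were −0.06 to 0.33, −0.07 to 0.02, −0.04 to 0.09, 0.17, −0.03 and −0.26 to 0.29 in the order above. Depth limits Cracr2a and 4930438A08Rik in bulk, with 108 and 23 counts in 54 libraries.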
